A study of Mus musculus with 16 samples.

Results

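The proteasome genes of mouse T-cell cultures were examined in 16 gene arrays. Members were taken by name, as all genes whose symbol opens with Psma, Psmb, Psmc, Psmd, Psme, Psmf or Psmg and a digit. This gave 50 of the 30921 genes with a main row on the array, and each of the 50 had a single row. The labels give CD4 T cells from spleens of male C54BL/6 wild-type mice (spelled so there) aged 8 weeks. The study's text also speaks of splenocytes, and its flow cytometry methods name wild-type BALB/c mice for in vitro work. There were 4 groups of 4 arrays. Th0 cells, which the study calls naïve T cells, were kept out of Th17 conditions. The study's text does not say whether they received antibodies to CD3 and CD28. Th17 cells were stimulated for differentiation into interleukin-17-producing helper cells, which the study describes as antibodies to CD3, CD28, interferon-γ and interleukin-4 with TGF-β and interleukin-6. Eze and Rsv cells received 20 µM of the cholesterol uptake blocker ezetimibe or 20 µM of the statin rosuvastatin under Th17 conditions. The labels give a culture of 3 days, and the study's text gives other durations. The sources used here do not say which arrays came from separate mice or cultures. The p-values therefore cover the spread among these arrays alone, which may be technical.

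The proteasome is the protease that degrades proteins tagged with ubiquitin. Its 20S core is a barrel of alpha rings, which gate the entrance, and beta rings, in which Psmb5, Psmb6 and Psmb7 encode the catalytic subunits. The 19S cap binds the tagged protein, removes the ubiquitin and unfolds the chain with a ring of ATPases. In lymphocytes and after interferon exposure, the immunosubunits encoded by Psmb8, Psmb9 and Psmb10 take the places of Psmb5, Psmb6 and Psmb7, and the PA28 activator of Psme1 and Psme2 can dock in place of the cap. This form favours peptides that MHC class I molecules present. Assembly factors, which are not part of the finished particle, bring the subunits together. When proteasome activity falls short, the transcription factor Nfe2l1 raises the subunit genes through antioxidant response elements.

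The promoters of Psmb5, Psmb6, Psmb8 and Psmb10 are shown because the results below set catalytic subunits beside the immunosubunits that replace them. No promoter was matched for Psmb7, and that of Psmb9 is not printed. The sequences are the 150 bases before the gene start in RefSeq (GRCm38.p6), each 5′ to 3′ on the strand of its gene. For Psmb8, this start lies inside the gene interval of the array annotation. Capitals mark a match to the antioxidant response element core (TGACNNNGC) in Psmb5 and Psmb6 and to the interferon-γ activated site (TTCNNNGAA) in Psmb8. In Psmb10, neither was found on either strand of this window. The unprinted promoter of Psmb9 held neither as well.
Psmb5, chr14:54617996-54618145, minus strand: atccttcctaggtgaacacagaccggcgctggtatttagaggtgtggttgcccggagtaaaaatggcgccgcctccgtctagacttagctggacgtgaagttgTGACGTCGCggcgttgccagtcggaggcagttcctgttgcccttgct
Psmb6, chr11:70525207-70525356, plus strand: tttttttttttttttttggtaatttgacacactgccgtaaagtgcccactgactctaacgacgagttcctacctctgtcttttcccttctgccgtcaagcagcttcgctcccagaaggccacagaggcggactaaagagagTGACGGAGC
Psmb8, chr17:34198045-34198194, plus strand: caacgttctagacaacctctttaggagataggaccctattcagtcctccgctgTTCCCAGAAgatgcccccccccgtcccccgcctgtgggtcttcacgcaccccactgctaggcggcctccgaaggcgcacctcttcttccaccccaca
Psmb10, chr8:105938393-105938542, minus strand: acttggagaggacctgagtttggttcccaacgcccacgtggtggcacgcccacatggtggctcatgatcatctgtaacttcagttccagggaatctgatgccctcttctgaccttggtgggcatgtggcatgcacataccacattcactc

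RefSeq promoters of 300 bases, from 250 before to 50 after the start, were matched to 41 of the 50 members, with 44 promoters. On either strand, the antioxidant response element core was found in 13.6% of these promoters and in 12.4% of all 32851 promoters. The CCAAT box (CCAAT), which the factor NF-Y binds, was found in 34.1% and 37.4%. The core of the interferon-stimulated response element (GAAA, any pair of bases, GAAA) was found in 11.4% against 3.44%. In members this is 5 promoters (Psmb3, Psmd4, Psmd9, Psme1 and Psmg4), and none is that of Psmb8, Psmb9 or Psmb10. In the main fit below, none of these 5 genes was called in Eze or Rsv against Th17. Psmd4 was called in Eze against Rsv. The interferon-γ activated site was found in 6.82% against 8.3%. A match of letters is a description and not a site of binding.

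The defining T-cell markers were present on every array, with Cd3e at 10.22 to 11.07 and Cd4 at 9.88 to 10.67 on the log2 scale of the arrays. The number of arrays limits the precision. The names of the data columns separate the array called replicate 4 in each group from replicates 1 to 3 by the number that opens them, and this was treated as a batch. Rsv replicate 4 had the lowest value of the Rsv arrays in 27 of the 50 members, and without it some members lost their call. They were Psma1, Psmb1, Psmc3ip and Psmc6 in Rsv against Th17 and Psmb2, Psmb5, Psmd11, Psmd12, Psmd3 and Psme3 in Eze against Rsv. Array quality was taken as the area under the curve that separates exon from intron control probes. It was 0.870 to 0.876 for Th0, 0.876 to 0.881 for Th17, 0.890 to 0.894 for Eze and 0.877 to 0.881 for Rsv. Of 10 T-cell markers, Th17 was higher than Th0 in 6 and lower in 1 (15.8% of all genes called). Against Th17, 2 of them were higher and 6 lower in Eze (21.7%), and 2 and 5 in Rsv (26%). Of 18 B-cell markers, 17 were lower in Th17 than in Th0 (15.8%). Eze was above Th17 in 13 of them and below it in 1 (21.7%). The part of these differences in the results below was not tested. In such bulk samples, fewer cells of a type and less RNA per cell cannot be told apart. All 50 members had means above the median of the 23 background control rows, at 2.52. The lowest mean was that of Psma5, at 2.98.

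The members fell into 31 constitutive subunits of the core and cap, 5 genes of the immunoproteasome and PA28, 7 assembly factors, 3 other activators or inhibitors, 2 tissue-restricted subunits and 2 genes that encode no component. Th17 had the lowest group mean in 34 of the 50 genes and the highest in 0. Eze had the highest mean in 37. The same counts were not taken over all genes. The 31 constitutive subunits, taken by the median of their differences from the Th17 mean, stood at 0.09 to 0.19 in the Th0 arrays, 0.54 to 0.64 in the Eze arrays and 0.26 to 0.44 in the Rsv arrays on the log2 scale. The ranges of these 3 groups did not overlap. The plot of all members by array shows this order.

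**Figure D1:**
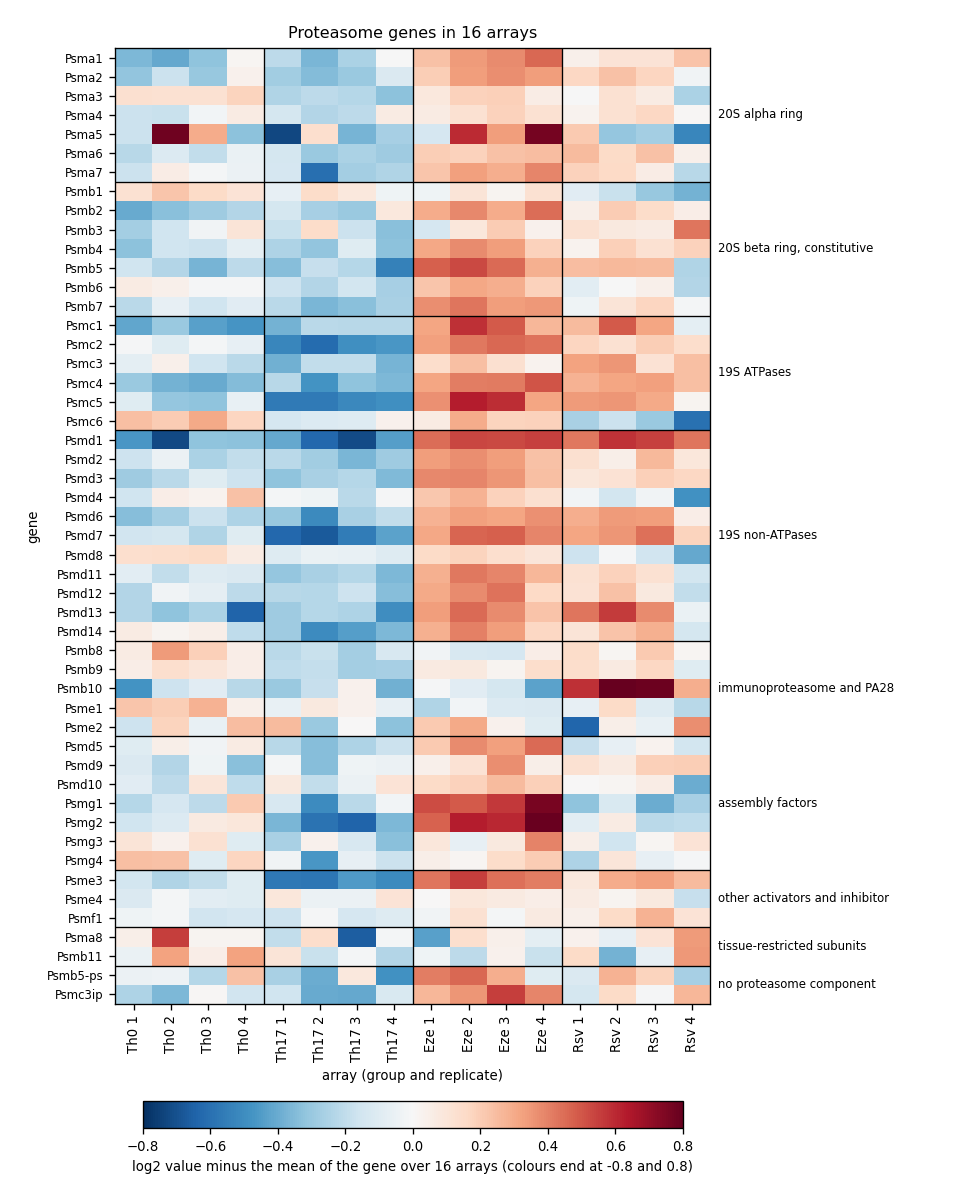
Log2 value of each of 50 proteasome genes (rows, grouped by role) in each of 16 arrays (columns, by group and replicate), as the difference from the mean of the gene over all arrays. Most subunits of the core and cap are blue in the Th17 arrays and red in the Eze arrays. Psmb10 is red in the 4 Rsv arrays, and Psmg1 and Psmg2 are red in the 4 Eze arrays.

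Under Th17 conditions, 11 proteasome genes fell below their Th0 level and 0 rose (limma, adjusted p under 0.05), while 8.5% of all genes were called higher and 7.29% lower, 15.8% in all. The arrays of the groups did not overlap in 14 members, all lower, against 9.51% lower and 10.1% higher among all genes, 19.6% in all. An unadjusted exact Mann-Whitney test of 4 against 4 arrays falls under 0.05 only where they do not overlap. Its counts, 0 higher and 14 lower, therefore repeat those above. The median difference of the members was -0.13 on the log2 scale, against -0.03 over all genes. The 11 comprised 6 constitutive subunits (Psmc2, Psmd7, Psma3, Psmd14, Psmc5 and Psmc6), the immunosubunits Psmb8 and Psmb9, the assembly factors Psmg2 and Psmd5, and the activator Psme3. The calls of Psmc5 and Psmc6 were lost without some single arrays (Th0 replicate 1 or 4 or Th17 replicate 1 or 2 for Psmc5, and Th0 replicate 1 or 3 or Th17 replicate 1, 2 or 3 for Psmc6). When arrays were centred on their medians, 7 were called, and Psmc5, Psmc6, Psmd14 and Psmd5 were not among them.

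Ezetimibe-treated cells had higher expression of most of the particle. Of 50 members, 34 were higher and 0 lower than in Th17, while 11.2% of all genes were higher and 10.5% lower, 21.7% in all. The median difference was 0.54 on the log2 scale, against -0.04 over all genes. Within the first batch, with 1 array a group, the median was 0.47, and within the second it was 0.57. By class, 27 of 31 constitutive subunits, 1 of 5 genes of the immunoproteasome and PA28, and 3 of 7 assembly factors were higher. The rest were the activator Psme3 and, encoding no component, Psmc3ip and the pseudogene Psmb5-ps. The arrays of the groups did not overlap in 36 members, all higher, against 12.4% higher and 13% lower among all genes, 25.5% in all. Beside this, the summed signal of 18 B-cell markers was 10.44 to 10.52 in Th17 and 10.79 to 10.85 in Eze on the log2 scale, and 7 of 11 markers of natural killer and cytotoxic cells were lower in Eze and 0 higher. Their part in the result was not tested.

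Rosuvastatin-treated cells also had higher expression of most subunits than Th17 cells. Of 50 members, 30 were higher and 2 lower, while 13.6% of all genes were higher and 12.4% lower, 26% in all. The median difference was 0.30, against 0.06 over all genes, and it was 0.22 within the first batch and 0.35 within the second. The arrays did not overlap in 25 members that were higher and 2 that were lower, against 13.1% and 12.4% of all genes, 25.5% in all. The higher members included Psmc3ip, which encodes no component. The 2 lower members were the beta subunit Psmb1 and the ATPase Psmc6. Without Rsv replicate 4, 28 were higher and 0 lower. The count of lower members was also 0 without Th17 replicate 2 or 3. When arrays were centred, 20 were higher and 2 lower. The Eze and Rsv comparisons share the Th17 arrays, so their values are given side by side and not as independent results.

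Eze and Rsv arrays were also compared directly. Of 50 members, Eze was higher in 17 and lower in 1, while 13.3% of all genes were higher and 15.2% lower, 28.5% in all. The median difference was 0.18, against -0.08 over all genes. Psmc3ip, which encodes no component, was again among the higher members. The lower member was Psmb10. The arrays did not overlap in 18 members that were higher and 1 that was lower, against 13.7% and 15% of all genes, 28.6% in all. Without Eze replicate 2, 10 were higher and 1 lower, and without Eze replicate 3 or Rsv replicate 4, 11 and 1. When arrays were centred, 29 were higher and 1 lower, so the number of members that differed between the drugs depended on the scaling.

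**Figure D2:**
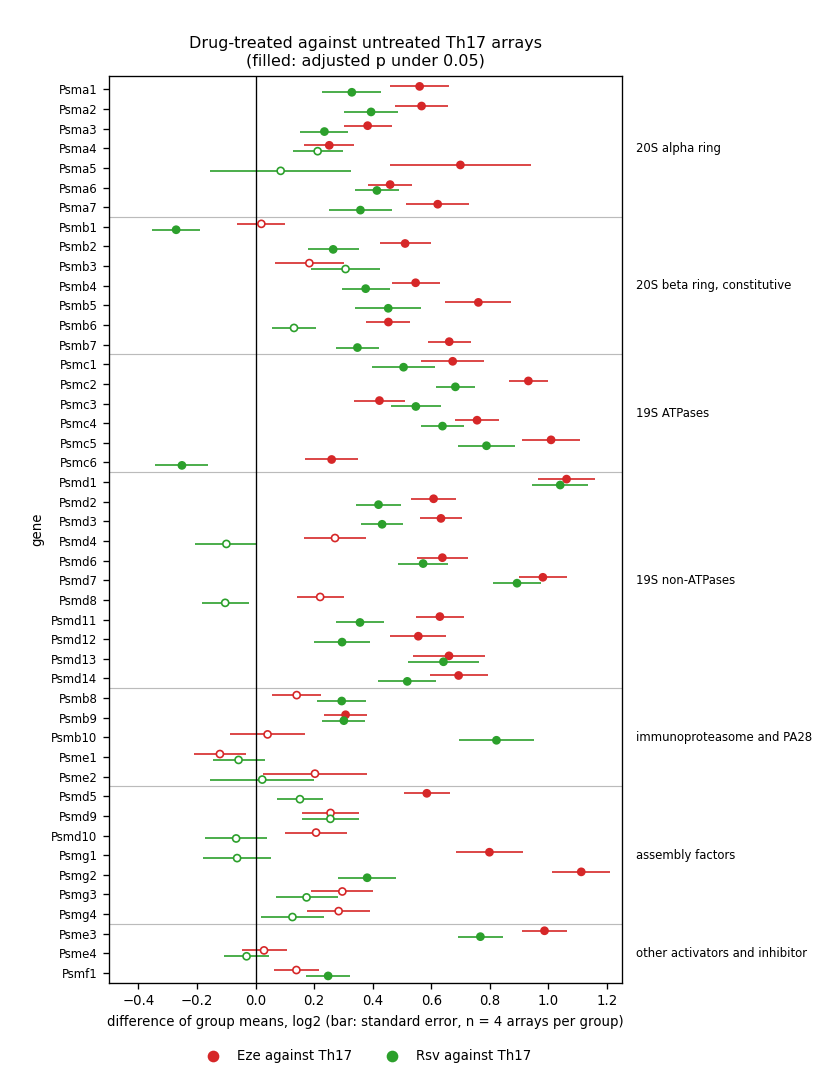
Difference of group means on the log2 scale (horizontal axis) for 46 proteasome genes by role, for Eze against Th17 (red) and Rsv against Th17 (green), with bars of 1 standard error (n = 4 arrays per group) and filled points for an adjusted p under 0.05. Red points lie to the right of green ones for most subunits, and Psmb10 and Psmb3 are among the exceptions.

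The 19S cap held several of the larger differences. Psmd1, a scaffold subunit of the base of the cap (chr1:86064387-86139295, plus strand), had log2 values of 7.47, 7.21, 7.62 and 7.61 in Th0 and 7.53, 7.30, 7.22 and 7.50 in Th17. It had 8.38, 8.47, 8.46 and 8.48 in Eze and 8.35, 8.51, 8.48 and 8.36 in Rsv. Every drug-treated array was above every untreated one. Psmd1 was 2.09-fold higher in Eze than in Th17 (log2 difference 1.06, SE 0.10, adjusted p = 1.68e-07) and 2.06-fold higher in Rsv (1.04, adjusted p = 1.99e-07). Eze and Rsv differed by 0.02 (SE 0.10, adjusted p = 0.887).

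Psmc5, an ATPase of the unfolding ring, had log2 values of 6.16, 6.16, 6.21 and 6.24 in Th17. It had 7.09, 7.36, 7.32 and 7.04 in Eze and 7.07, 7.08, 7.03 and 6.75 in Rsv. No array of either drug overlapped the Th17 arrays. The differences were 1.01 (SE 0.10) in Eze and 0.79 in Rsv. Psmd7, a subunit of the lid that partners the deubiquitinase Psmd14, had 7.97, 7.93, 8.04 and 8.18 in Th17 and 8.91, 9.07, 9.08 and 8.99 in Eze. It was 0.98 higher in Eze and 0.89 in Rsv (SE 0.08), and 0.41 lower in Th17 than in Th0 (adjusted p = 0.00118). The ATPase Psmc2 was 0.47 lower in Th17 than in Th0 (SE 0.07, adjusted p = 4.48e-05), with 7.57 to 7.72 against 8.09 to 8.17. It was 0.93 higher in Eze and 0.68 higher in Rsv than in Th17. The lowest drug-treated array, at 8.31, was above the highest Th0 array.

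All 6 ATPase genes were higher in Eze than in Th17, by 0.26 to 1.01 (11.2% of all genes called higher). In Rsv, 5 of 6 were higher (13.6%). The exception was Psmc6, with 8.69 to 8.86 for Th17, 8.89 to 9.12 for Eze and 8.23 to 8.65 for Rsv. The 3 groups did not overlap. It was 0.26 higher in Eze (adjusted p = 0.0481) and 0.25 lower in Rsv (adjusted p = 0.0485), and 0.51 higher in Eze than in Rsv (SE 0.09, adjusted p = 0.000358). Both calls against Th17 were near the threshold. The one in Eze was lost without Eze replicate 2, 3 or 4 or Th17 replicate 1, 2 or 3 (adjusted p = 0.0876 to 0.1445), which leaves 5 of 6 ATPases. The one in Rsv was lost without any array but Rsv replicate 2 (adjusted p = 0.056 to 0.1585) and in the second batch alone (adjusted p = 0.3469). Of 11 non-ATPase subunits of the cap, 9 were higher in Eze and 9 in Rsv. Psmd4, a ubiquitin receptor, and Psmd8, a lid subunit, passed in neither comparison. They were 0.37 (adjusted p = 0.014) and 0.32 (adjusted p = 0.00541) higher in Eze than in Rsv. The deubiquitinase Psmd14, which cuts ubiquitin chains from the substrate, was 0.69 higher in Eze, 0.52 higher in Rsv and 0.38 lower in Th17 than in Th0.

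In the 20S core, all 7 alpha subunits were higher in Eze than in Th17, by 0.25 to 0.70 (11.2% of all genes called higher). In Rsv, 5 of 7 were higher (13.6%). The count in Rsv was 4 without Rsv replicate 4 and 2 with centred arrays, which lost Psma1, Psma3 and Psma7. Psma3 was the alpha subunit that differed between Th17 and Th0, at 8.92, 8.95, 8.93 and 8.83 against 9.29, 9.28, 9.28 and 9.34. The groups were apart, with a difference of -0.39 (SE 0.08, adjusted p = 0.00224). In Eze it had 9.24, 9.35, 9.35 and 9.22, on both sides of the narrow Th0 range. Psma5 was measured by 8 probes near background, and its arrays spread over 2.24 to 3.76. Its call in Eze was lost in the second batch alone (0.59, adjusted p = 0.1616) and with batch as a block (adjusted p = 0.0524). It was also lost without any 1 of 6 of the 8 arrays, all but Eze replicate 1 and Th17 replicate 2, and that of Psma4 without any 1 of 7, all but Th17 replicate 4. Of 7 constitutive beta subunits, 5 were higher in Eze, and 4 were higher and 1 lower in Rsv. Psmb1 was the lower one, with 8.86 to 9.07 for Th17, 8.89 to 9.05 for Eze and 8.55 to 8.84 for Rsv (difference -0.27, SE 0.08, adjusted p = 0.0191). That call was lost without Rsv replicate 4 or Th17 replicate 2 or 3 (adjusted p = 0.0532 to 0.0606) and in the second batch alone (adjusted p = 0.0707).

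The catalytic subunits rose with ezetimibe. Psmb5, which carries the chymotrypsin-like activity, had log2 values of 6.50, 6.66, 6.61 and 6.30 in Th17 and 7.32, 7.37, 7.30 and 7.13 in Eze. It had 7.09, 7.10, 7.09 and 6.60 in Rsv. The Eze arrays were apart from the Th17 arrays, and Rsv replicate 4 lay within them. Psmb5 was 0.76 higher in Eze (SE 0.11, adjusted p = 4.82e-05) and 0.45 higher in Rsv (adjusted p = 0.00542). The difference of 0.31 between the drugs (adjusted p = 0.0494) fell to 0.18 without Rsv replicate 4 (adjusted p = 0.174), and its call was also lost without Eze replicate 1, 2 or 3 (0.28 to 0.30, adjusted p = 0.0919 to 0.119). A pseudogene of Psmb5, Psmb5-ps, was 0.53 higher in Eze (lost without Eze replicate 1 or 2 or Th17 replicate 2 or 4), and probes of such copies may share transcripts.

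Psmb7, the trypsin-like subunit, had 8.46, 8.31, 8.34 and 8.41 in Th17 and 9.04, 9.10, 9.01 and 9.02 in Eze, and 8.64, 8.77, 8.84 and 8.66 in Rsv. The 3 groups did not overlap. It was 0.66 higher in Eze and 0.35 in Rsv than in Th17, and 0.31 higher in Eze than in Rsv (SE 0.07, adjusted p = 0.00394). Psmb6, the caspase-like subunit, had 7.45, 7.38, 7.47 and 7.35 in Th17, 7.84, 7.93, 7.90 and 7.80 in Eze and 7.53, 7.61, 7.66 and 7.38 in Rsv. It was 0.45 higher in Eze than in Th17 (adjusted p = 0.000161) and 0.32 higher than in Rsv (adjusted p = 0.00368). Rsv and Th17 overlapped, with a difference of 0.13 (SE 0.08, adjusted p = 0.228).

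The immunosubunits were then examined. Psmb10, which replaces Psmb7 (chr8:105935728-105938392, minus strand), had log2 values of 6.49, 6.81, 6.88 and 6.75 in Th0 and 6.68, 6.79, 7.01 and 6.59 in Th17. It had 6.97, 6.88, 6.84 and 6.54 in Eze and 7.56, 7.78, 7.76 and 7.26 in Rsv. The Rsv arrays were above all 12 other arrays. Psmb10 was 1.77-fold higher in Rsv than in Th17 (log2 difference 0.82, SE 0.13, adjusted p = 8.81e-05). In Eze the difference from Th17 was 0.04 (SE 0.13, adjusted p = 0.884), and Eze was 0.78 lower than Rsv (adjusted p = 0.000189).

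Psmb9, which replaces Psmb6, had 7.23, 7.31, 7.27 and 7.22 in Th0 and 6.97, 6.98, 6.90 and 6.91 in Th17. It had 7.24, 7.25, 7.19 and 7.31 in Eze and 7.31, 7.24, 7.33 and 7.08 in Rsv. The Th17 arrays were below all others. Psmb9 was 0.32 lower in Th17 than in Th0 (SE 0.07, adjusted p = 0.00463), and it was 0.31 higher in Eze and 0.30 higher in Rsv than in Th17 (adjusted p = 0.0042 and 0.00452).

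Psmb8, which replaces Psmb5, had 8.85, 9.11, 8.97 and 8.83 in Th0, 8.56, 8.60, 8.50 and 8.65 in Th17, 8.75, 8.65, 8.64 and 8.83 in Eze and 8.92, 8.79, 8.98 and 8.79 in Rsv. Th17 lay below Th0 and Rsv without overlap. The difference was -0.36 for Th17 against Th0 (adjusted p = 0.00476), 0.29 for Rsv against Th17 (adjusted p = 0.0137) and 0.14 for Eze against Th17 (SE 0.08, adjusted p = 0.292). When arrays were centred, Psmb8 and Psmb9 no longer passed in Rsv (0.21 and 0.22, adjusted p = 0.133 and 0.0895). Psmb8 and Psmb9 lie beside each other on chromosome 17 (34197721-34201454, plus strand, and 34181987-34187764, minus strand), with the peptide transporter gene Tap1, whose interval overlaps that of Psmb9, between their starts.

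The PA28 genes passed in no comparison. Psme1 had its arrays at 9.57 to 9.81 for Th0, 9.46 to 9.61 for Th17, 9.29 to 9.51 for Eze and 9.30 to 9.68 for Rsv. Its differences from Th17 were -0.12 in Eze and -0.06 in Rsv (SE 0.09). Psme2, measured by 8 probes, had arrays between 4.56 and 5.57, and its standard error of 0.18 exceeds that of Psme1. The related activator Psme3 encodes PA28γ, a nuclear activator that does not serve the immunoproteasome. It had 6.54, 6.52, 6.65 and 6.60 in Th17, 7.53, 7.66, 7.55 and 7.52 in Eze and 7.19, 7.40, 7.43 and 7.36 in Rsv. The 3 groups were apart. Psme3 was 0.99 higher in Eze (SE 0.08, adjusted p = 2.07e-08) and 0.77 higher in Rsv (adjusted p = 4.25e-07), and 0.36 lower in Th17 than in Th0 (adjusted p = 0.00234). The activator Psme4 passed in no comparison, and the inhibitor Psmf1 was 0.25 higher in Rsv than in Th17 (adjusted p = 0.0217). The Psmf1 call was lost with centred arrays (0.16, adjusted p = 0.2083), in the second batch alone (adjusted p = 0.0621) and without Rsv replicate 3 or Th17 replicate 1 or 3.

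**Figure D3:**
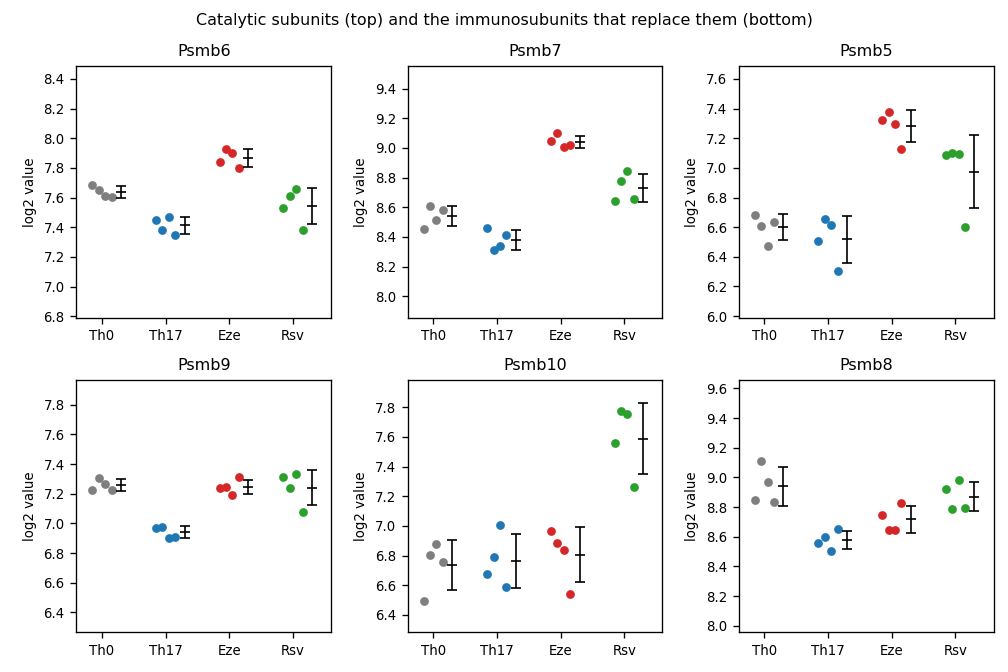
Log2 value by array (points, in the order of replicates 1 to 4) and mean with 1 SD (bars, n = 4) for the constitutive catalytic subunits (top) and the immunosubunits that replace them (bottom) in Th0, Th17, Eze and Rsv, with axes that do not start at 0. The Eze arrays are the highest in the top panels, while the 4 Rsv arrays of Psmb10, from 7.26 to 7.78, lie above all others.

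To set each immunosubunit against the subunit it replaces, the difference of both log2 values was taken within each array, and its change between groups was tested. Psmb10 minus Psmb7 was -1.83 to -1.33 for Th17, -2.47 to -2.08 for Eze and -1.395 to -0.998 for Rsv. Eze lay below both without overlap. The change was -0.62 for Eze against Th17 and -1.10 for Eze against Rsv. Psmb8 minus Psmb5 changed by -0.62 for Eze against Th17, again without overlap, and Psmb9 minus Psmb6 by 0.17 for Rsv against Th17 and -0.32 for Eze against Rsv. Each of these 5 gave p = 0.02857 (two-sided exact permutation test), the smallest that 4 against 4 arrays allow. Adjusted over all 12 tests it was 0.0686, so none passed the threshold of 0.05.

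Among the assembly factors, a pair that builds the alpha ring was higher in Eze. Psmg1 and Psmg2 encode the chaperones PAC1 and PAC2, which form a dimer that assembles this ring. Psmg2 had log2 values of 6.62, 6.66, 6.84 and 6.86 in Th0, 6.41, 6.18, 6.13 and 6.41 in Th17, 7.24, 7.40, 7.38 and 7.56 in Eze and 6.69, 6.84, 6.56 and 6.57 in Rsv. The Eze arrays were above all others, and the Th17 arrays below. Psmg2 was 2.16-fold higher in Eze than in Th17 (1.11, SE 0.10, adjusted p = 1.33e-07), the largest difference of the 50 members in that comparison. It was 0.38 higher in Rsv than in Th17 (adjusted p = 0.0075, and 0.30 with adjusted p = 0.0577 when arrays were centred) and 0.73 higher in Eze than in Rsv (adjusted p = 2.35e-05).

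Its partner Psmg1 had 6.11, 5.74, 6.02 and 6.22 in Th17, 6.76, 6.72, 6.80 and 6.99 in Eze and 5.91, 6.11, 5.84 and 5.97 in Rsv. The Rsv arrays lay within the Th17 range and the Eze arrays above it. Psmg1 was 0.80 higher in Eze than in Th17 (SE 0.12, adjusted p = 3.67e-05) and 0.86 higher than in Rsv (adjusted p = 2.04e-05). Rsv differed from Th17 by -0.06 (SE 0.12, adjusted p = 0.742).

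Pomp, which guides the beta subunits onto the alpha ring and is not a member by name, had 8.11, 8.17, 8.25 and 8.44 in Th17, 8.88, 8.87, 8.88 and 8.86 in Eze and 8.22, 8.28, 8.33 and 8.17 in Rsv. Eze was apart from both other groups, which overlapped. Pomp was 0.63 higher in Eze than in Th17 (SE 0.10, adjusted p = 9.18e-05) and 0.62 higher than in Rsv (adjusted p = 0.000134), and Rsv differed from Th17 by 0.01. Psmd5, a chaperone of the base of the cap, was 0.58 higher in Eze than in Th17 and 0.43 higher than in Rsv (adjusted p = 1.79e-05 and 0.000489), with 8.05 to 8.30 in Eze, 7.51 to 7.68 in Th17 and 7.66 to 7.88 in Rsv. It was 0.24 lower in Th17 than in Th0 (adjusted p = 0.0468). That call was lost without any 1 of 7 of the 8 arrays (adjusted p = 0.0506 to 0.127), all but Th0 replicate 1.

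The other assembly factors passed in no comparison. Psmg3 and Psmg4 encode PAC3 and PAC4, which also act on the alpha ring. They were 0.30 and 0.28 higher in Eze than in Th17 (SE 0.11, adjusted p = 0.055 and 0.0724). The cap chaperones Psmd9 and Psmd10 were 0.26 and 0.21 higher (adjusted p = 0.0737 and 0.203). When arrays were centred, Psmd9, Psmg3 and Psmg4 passed, which gave 6 of 7 in place of 3.

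**Figure D4:**
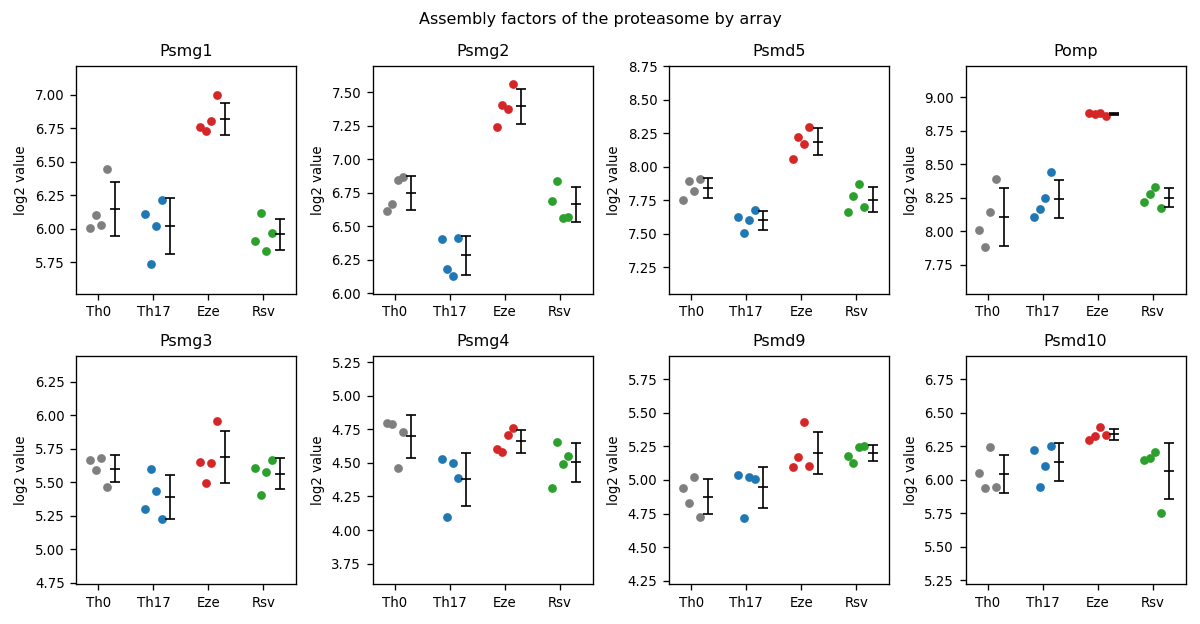
Log2 value by array (points, in the order of replicates 1 to 4) and mean with 1 SD (bars, n = 4) for 7 assembly factors and Pomp in Th0, Th17, Eze and Rsv, with axes that do not start at 0. The Eze arrays of Psmg1, Psmg2, Psmd5 and Pomp lie above the arrays of all other groups, and the Rsv arrays of Psmg1 and Pomp overlap those of Th17.

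Genes that work with the proteasome lie outside the name rule as well. Of 25 such genes listed, 22 were measured, and Th17 was higher than Th0 in 0 and lower in 4, a share near the 15.8% called among all genes, and 0 passed with centred arrays. Against Th17, 13 were higher and 0 lower in Eze (21.7% of all genes called), and 6 and 3 in Rsv (26%), or 4 and 4 with centred arrays. Eze was higher than Rsv in 10 and lower in 1 (28.5%), or in 15 and 1 with centred arrays. Uchl5, a deubiquitinase of the cap, was 0.999 higher in Eze (SE 0.12, adjusted p = 5.19e-06) and 0.79 higher in Rsv (adjusted p = 7.31e-05), with 7.65 to 7.89 for Th17, 8.56 to 8.90 for Eze and 8.07 to 8.70 for Rsv. Both drugs were apart from Th17. The shuttle receptor Ubqln4, which carries ubiquitinated proteins to the particle, was 0.69 higher in Eze than in Th17 (adjusted p = 0.000287) and 0.56 higher than in Rsv (adjusted p = 0.00207). Vcp, the segregase that extracts substrates, was 0.63 higher in Eze and 0.70 higher in Rsv. Zfand2a, a factor induced by proteotoxic stress, was higher in Rsv than in Eze. It was at 5.69 to 5.86 for Th17, 6.01 to 6.03 for Eze and 6.49 to 6.67 for Rsv, and 0.56 lower in Eze than in Rsv (SE 0.07, adjusted p = 1.49e-05).

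Among 10 regulators of proteasome genes, Th17 was higher than Th0 in 2 and lower in 1 (15.8% of all genes called). Against Th17, 2 were higher and 4 lower in Eze (21.7%), and 3 and 4 in Rsv (26%). Eze was higher than Rsv in 3 and lower in 1 (28.5%). Nfe2l1, the factor named above, had log2 values of 6.76, 6.88, 6.69 and 6.64 in Th0, 5.87, 5.79, 5.68 and 5.83 in Th17, 6.82, 6.70, 6.77 and 6.70 in Eze and 6.15, 6.09, 6.12 and 6.04 in Rsv. Th0 and Eze overlapped, Th17 was the lowest group, and Rsv lay apart between them. Nfe2l1 was 0.95 lower in Th17 than in Th0 (SE 0.08, adjusted p = 3.61e-08), 0.95 higher in Eze than in Th17 (adjusted p = 3.02e-08) and 0.31 higher in Rsv (adjusted p = 0.00494). Eze was 0.65 higher than Rsv (adjusted p = 4.15e-06).

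Ddi2, the protease that cleaves and activates the Nfe2l1 protein, moved in the other direction in the same 3 comparisons. Its transcript was 0.46 higher in Th17 than in Th0 (adjusted p = 0.000445), 0.59 lower in Eze and 0.56 lower in Rsv than in Th17. Ngly1, which removes sugar chains from the same factor, was 0.43 lower in Eze (adjusted p = 0.00134) and differed by -0.05 in Rsv (adjusted p = 0.704). The NF-Y subunit Nfya was 0.59 and 0.41 higher in Eze and Rsv. Its partner Nfyb fell, with 8.10 to 8.23 for Th17, 7.55 to 7.72 for Eze and 6.22 to 6.86 for Rsv. The 3 groups were apart, with differences from Th17 of -0.53 in Eze and -1.55 in Rsv (SE 0.10, adjusted p = 0.000849 and 3.42e-09).

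The genes of MHC class I peptide processing and presentation, which use the products of the immunoproteasome, differed between the drugs in 10 of 15 cases, while 28.5% of all genes did. All 10 were lower in Eze, 7 with centred arrays and 9 without Rsv replicate 4. Th17 was higher than Th0 in 3 and lower in 5 (15.8% of all genes called). Against Th17, 3 were higher and 5 lower in Eze (21.7%), and 10 higher and 0 lower in Rsv (26%). Tapbp, the tapasin that loads peptides, had 8.29 to 8.37 for Th17, 7.80 to 7.92 for Eze and 8.89 to 9.08 for Rsv. The groups were apart, and Eze was 1.12 lower than Rsv (SE 0.07, adjusted p = 1.27e-09). The transcription factor Irf1 and the class I transactivator Nlrc5, which activate immunosubunit and class I genes, were 0.86 and 0.70 lower in Eze than in Rsv (adjusted p = 1.19e-07 and 7.28e-06). Both were higher in Rsv than in Th17, by 0.70 and 0.68, and differed from it by -0.16 and -0.02 in Eze (adjusted p = 0.152 and 0.912). Irf2 was 0.92 lower in Eze than in Th17 (adjusted p = 8.55e-08).

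Markers listed for other cell types moved beside Psmb10 and the class I genes. Of 14 myeloid markers, Rsv was higher than Th17 in 9 and lower in 1 (26% of all genes called). Eze was higher than Rsv in 0 of them and lower in 12 (28.5%). Their summed signal was 9.02 to 9.17 for Th17, 8.59 to 8.65 for Eze and 9.16 to 9.42 for Rsv on the log2 scale. Both CD8 markers were higher in Rsv than in Th17, with summed signals of 8.36 to 8.75 against 7.66 to 7.70. Of 11 natural killer and cytotoxic markers, 6 were higher and 1 lower in Rsv, at 11.12 to 11.49 against 10.50 to 10.52 in Th17. Such a sum weighs bright markers most. Gzmb had means of 8.89 in Th17 and 10.53 in Rsv, Klrb1c of 3.12 and 3.655 and Ncr1 of 3.34 and 3.77. Single myeloid markers ranged widely as well. Cybb had a mean of 5.095 in Th17 and 7.22 in Rsv, Lyz2 of 5.11 and 6.47 and Csf1r of 4.09 and 4.32. Cd68 lay on the other side, at 8.05 in Th17 and 6.54 in Rsv. For Th17 against Th0, in which Psmb8 and Psmb9 were lower, the summed B-cell signal was 11.68 to 11.75 in Th0 and 10.44 to 10.52 in Th17. The part of these cells in the results was not tested.

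The remaining members complete the family. Psma8 and Psmb11, subunits restricted to testis and thymus, had means of 4.04 and 3.5 over the 16 arrays and passed in no comparison. Psmc3ip, which the name rule takes in, encodes a recombination factor and no proteasome component. It was 0.66 higher in Eze than in Th17 (SE 0.11, adjusted p = 0.000139), 0.34 higher in Rsv (adjusted p = 0.0269), and 0.32 higher in Eze than in Rsv (adjusted p = 0.0332). The call in Rsv was lost with centred arrays (adjusted p = 0.1182), in the second batch alone (adjusted p = 0.0855) and without Rsv replicate 2 or 4 or Th17 replicate 2 or 3. The call between the drugs was lost without Eze replicate 2, 3 or 4 or Rsv replicate 1 or 3 (0.25 to 0.34, adjusted p = 0.0539 to 0.11).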

How the data were processed

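RNA of 16 samples was hybridised to MoGene-2_0-st arrays, per the file headers (the study's methods call the assay RNA sequencing). The deposited values are log2 signals, which the authors had preprocessed with RMA (spelled out otherwise in the methods) and quantile normalized over the arrays. They were used as deposited. Samples were grouped by their labels, and the un-numbered array of each group is called replicate 4. Of 41345 rows, 33793 are main rows. Each gene was represented by its brightest row, giving 30921 genes. No probe-level measure of detection was used.

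Group means were estimated over all 16 arrays and all genes with limma 3.58.1 (R 4.3.3, eBayes), with Benjamini-Hochberg adjustment over all genes and a threshold of 0.05. Tests were two-sided. Exact permutation tests used scipy 1.17.1. The script was tested on simulated data. The members and lists were chosen with earlier results of these data known. Named were all immunoproteasome, PA28 and assembly genes, the 3 catalytic subunits, the 5 other members with the largest passing difference in each comparison, and up to 4 genes of each other list. Other values of these genes, Psmb5-ps, Psmf1, Psme4 and the members of short counts were chosen after their values were seen. Gene coordinates are those of the deposited annotation. All 50 members overlap the same gene in RefSeq GRCm38.p6, and 28 share its start or end. Alternatives covered scaling, dim genes, rows per gene, batch, replicate number, array weights, samples in the fit, the Mann-Whitney test of the methods, an intensity trend with robust spread (chosen after seeing the data), and leaving out each array.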

Additional observations from a re-analysis of the deposited data

Results flagged for a closer look

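Of 54 genes named or listed, each tested in 4 groups of 4 arrays, 14 of 216 groups held an array whose gap to the nearest other was too large a share of the range of the group by Dixon's test. Chance flags about 1 in 20 groups. Rsv replicate 4 accounts for 5 of them. It was low in Psmb5 (6.603, others 7.090 to 7.103), Psmc5 (6.751, others 7.029 to 7.077), Psmd10 (5.75, others 6.146 to 6.205), Tapbpl (6.545, others 6.835 to 6.892) and Uchl5 (8.073, others 8.652 to 8.699). Th0 replicate 4 was high in Calr (10.473, others 10.19 to 10.212) and Psma3 (9.335, others 9.282 to 9.288), and low in Psmd14 (6.938, others 7.167 to 7.207). Th17 replicate 4 was high in Rps27a (10.476, others 9.938 to 9.968), and Eze replicate 4 was low in Rad23b (8.964, others 9.074 to 9.083). Outside the first batch, Th17 replicate 2 was low in Psmd9 (4.719, others 5.007 to 5.038) and Tapbp (8.288, others 8.357 to 8.368), Th17 replicate 3 in Psmd4 (7.188, others 7.367 to 7.393) and Eze replicate 1 in Pdia3 (9.017, others 9.078 to 9.089).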

How the results depend on the processing

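The counts of members called were 11, 34, 32 and 18 for Th17 against Th0, Eze against Th17, Rsv against Th17 and Eze against Rsv. Centring each array on its median gave 7, 38, 22 and 30, and the splits of all genes into higher and lower moved from 3465 and 3241 to 3999 and 2236 (Eze against Th17), from 4194 and 3845 to 2602 and 4670 (Rsv against Th17) and from 4117 and 4687 to 6796 and 2010 (Eze against Rsv). Among the named genes called in the main fit, none reversed its direction under any alternative run. The counts and the 12 within-array differences, none of which passed, were not judged for reversal. Leaving out 1 array gave 8 to 10, 31 to 32, 25 to 30 and 11 to 17, the 11 being without Eze replicate 2. The second batch alone gave 10, 34, 29 and 12. With only the 2 groups compared fitted, Rsv against Th17 lost calls of Psma3, Psma7, Psmb1, Psmb2, Psmc3ip, Psmc6, Psmd12 and Psmf1. In Eze against Rsv, those of Psmb2, Psmb5, Psmd11, Psmd12, Psmd3 and Psme3 were lost and that of Psma5 was gained. Psmd5 lost its call in Th17 against Th0. In Eze against Th17, Psma4 lost its call, while Psmd4 and Psmd8 gained theirs. Pairing of samples by replicate number was not seen. The deviations of same-numbered arrays correlated at -0.144 to 0.184, and 5 of 16 arrays correlated best with their own number. With 4 arrays a group, this cannot exclude a shared mouse or culture. With the number as a replicate block the counts were 11, 33, 32 and 17, and both Psmc6 calls against Th17 were lost (adjusted p = 0.0643 in Eze and 0.0634 in Rsv). For the 12 within-array differences, the replicate block leaves the change as it was by arithmetic. An exact sign-flip test over 4 pairs cannot go below p = 0.125, so it could not pass the threshold. Between the batches, only Psmb8 minus Psmb5 for Th17 against Th0 differed in sign. It changed by -0.28 over all arrays, by 0.15 in the first batch, with 1 array a group, and by -0.42 in the second. The deposited series matrix holds the same values, so it gave no alternative.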
